A study of Mus musculus with 18 samples.

Results

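The NDRG (N-myc downstream-regulated gene) family has 4 members in the mouse, Ndrg1, Ndrg2, Ndrg3 and Ndrg4, and was taken by gene symbol from a table of 27179 genes. All 4 were in the table, and all 4 passed the filter on low values (a mean of 10 or more), which left 14353 genes to be fitted. The family was put together with its values in these libraries in view, so the differences of its members are given as descriptions with a standard error (SE) and without a p-value. RNA was sequenced from 18 cultures of bone marrow mesenchymal stem cells (MSCs) of male C57BL6 mice, 6 each of young (mice of 6 weeks), old (mice of 18 to 24 months) and rejuvenated old MSCs. Rejuvenated old MSCs were old cells kept for 7 days in one well with young MSCs, apart from them by a Transwell membrane with pores of 0.4 µm. Day 7 is given for all 18 cultures. The old cells, alone or in co-culture, were seeded at 100000 per well, and no seeding number is given for the young cultures. Old MSCs paired with a second layer of old MSCs were not analysed here, and the age of the partner cells and the presence of a partner cannot be told apart. The labels call the 6 libraries of a group biological replicates but name no separate animals, so the spread between them may be partly technical. Values are read counts divided by a size factor for each library (normalized counts), and the libraries held 22936251 to 29559194 reads on genes.

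NDRG proteins share an α/β-hydrolase fold but are not known to act as hydrolases. Ndrg1 is induced by hypoxia, by iron depletion, by differentiation and by stress hormones, is repressed by N-Myc and Myc, and is phosphorylated by the kinases SGK and GSK3. Ndrg2 is best known from astrocytes and as a gene that Myc represses, Ndrg3 protein is stabilised when its oxygen-dependent hydroxylation stops and lactate binds it, and Ndrg4 is best known from heart and brain.

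The start regions are shown first because the members did not share one pattern across the 3 groups. In the RefSeq promoter windows of GRCm38.p6 (mm10), which run from 250 bases before to 50 bases after a start, 3 of the 4 members had an entry, with 3 windows for Ndrg2, 2 for Ndrg3 and 4 for Ndrg4. Ndrg1 is not among them. Each window was searched on both strands for ACGTG and GCGTG, the core letters of a hypoxia response element, and for CACGTG, the E-box letters that Myc and Max bind, which contains ACGTG on both strands. Over all 32851 windows, 19.6% held ACGTG, 32.4% held GCGTG, 7.15% held CACGTG and 43.8% held ACGTG or GCGTG. Windows of one gene can overlap, and of the 9 windows of the family 5 held ACGTG or GCGTG. The window with the most matches of each member is printed 5′ to 3′ in the direction of the gene, with every match in capitals. The Ndrg2 window (chr14:51913439-51913738, minus strand) had 3 matches, all to GCGTG, and none to ACGTG. The Ndrg3 window (chr2:156991654-156991953, minus strand) had 2, again to GCGTG. The Ndrg4 window (chr8:95677513-95677812, plus strand) was the only one of the 9 with CACGTG, flanked by 2 matches to GCGTG. A match is a run of letters and not an occupied site.
Ndrg2: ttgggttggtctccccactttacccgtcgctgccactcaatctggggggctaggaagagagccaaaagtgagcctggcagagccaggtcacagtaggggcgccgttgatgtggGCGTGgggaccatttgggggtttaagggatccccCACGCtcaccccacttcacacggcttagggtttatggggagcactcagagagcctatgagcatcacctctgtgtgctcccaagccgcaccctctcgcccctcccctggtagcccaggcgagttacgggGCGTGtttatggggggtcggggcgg
Ndrg3: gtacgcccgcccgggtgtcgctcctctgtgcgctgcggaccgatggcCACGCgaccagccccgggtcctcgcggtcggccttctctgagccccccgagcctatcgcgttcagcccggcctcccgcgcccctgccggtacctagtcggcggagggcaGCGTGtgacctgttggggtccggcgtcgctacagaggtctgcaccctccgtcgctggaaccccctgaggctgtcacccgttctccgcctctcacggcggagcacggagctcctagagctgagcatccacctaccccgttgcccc
Ndrg4: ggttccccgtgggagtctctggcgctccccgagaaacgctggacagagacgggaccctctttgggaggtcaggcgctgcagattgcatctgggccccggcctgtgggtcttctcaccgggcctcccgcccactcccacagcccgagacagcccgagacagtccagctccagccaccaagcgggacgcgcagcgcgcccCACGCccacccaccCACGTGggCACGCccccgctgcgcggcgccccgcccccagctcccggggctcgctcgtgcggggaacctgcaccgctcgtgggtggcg

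Ndrg1 was abundant in young MSCs and 80.6-fold lower in old MSCs. The gene (Entrez 17988) lies on chromosome 15, from 66929318 to 66969641 in GRCm38.p6. The 6 young libraries held 9475, 9398, 9858, 9466, 9393 and 10025 normalized counts (replicates 1 to 6), a mean of 9603 ± 270 (SD, n = 6). The old libraries held 122, 128, 127, 120.0, 107 and 111, a mean of 119 ± 8.48 (SD, n = 6). Every young library was thus far above every old one, on 107 to 132 reads in the old libraries. Young exceeded old MSCs by 6.32 ± 0.13 (SE) on the log2(normalized count + 1) scale, on which all differences below are given.

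In rejuvenated old MSCs, Ndrg1 was higher than in old MSCs and still far below young MSCs. The libraries held 483, 236, 211, 232, 304 and 222 normalized counts, a mean of 281 ± 104 (SD, n = 6). Each of them lay above the highest old library, with replicate 1 well above the other 5. The mean was 2.36 times that of old MSCs, a log2 difference of 1.17 ± 0.13 (SE), and 34.1-fold below that of young MSCs, a difference of -5.15 ± 0.13. Without rejuvenated old replicate 1 the difference from old MSCs was 1.00 ± 0.07. Along the log2 distance from the old to the young mean, rejuvenated old libraries had covered 18.5 ± 7.14% (SD, n = 6), from 13.0% to 31.8%. On the scale of the counts themselves they had covered 1.71 ± 1.10%.

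Ndrg2 had the largest relative gain of the family after co-culture. The gene (Entrez 29811) lies on chromosome 14, from 51905271 to 51914004. Young libraries held 269, 242, 246, 234, 269 and 266 normalized counts, a mean of 254 ± 15.4 (SD, n = 6). Old libraries held only 6.45, 4.92, 5.39, 8.18, 11.04 and 7.70, a mean of 7.28 ± 2.23, on 5 to 11 reads each. In rejuvenated old libraries the values were 83.4, 46.3, 35.2, 52.1, 68.0 and 37.7, a mean of 53.8 ± 18.7 on 37 to 81 reads. The 3 groups did not overlap, and the order was young, rejuvenated old, old in all libraries.

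The rejuvenated old mean of Ndrg2 was 7.39 times the old mean, a log2 difference of 2.70 ± 0.19 (SE). Young exceeded old MSCs 34.9-fold, by 4.98 ± 0.19, and rejuvenated old MSCs differed from young by -2.28 ± 0.19. Rejuvenated old libraries had covered 54.2 ± 9.53% of the log2 distance to young MSCs (range 43.5 to 68.0%), and 18.8 ± 7.56% of the distance in counts. Because old libraries held so few reads, the log2 difference depended on the pseudocount, and it was 1.84 with a pseudocount of 10.

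**Figure D1:**
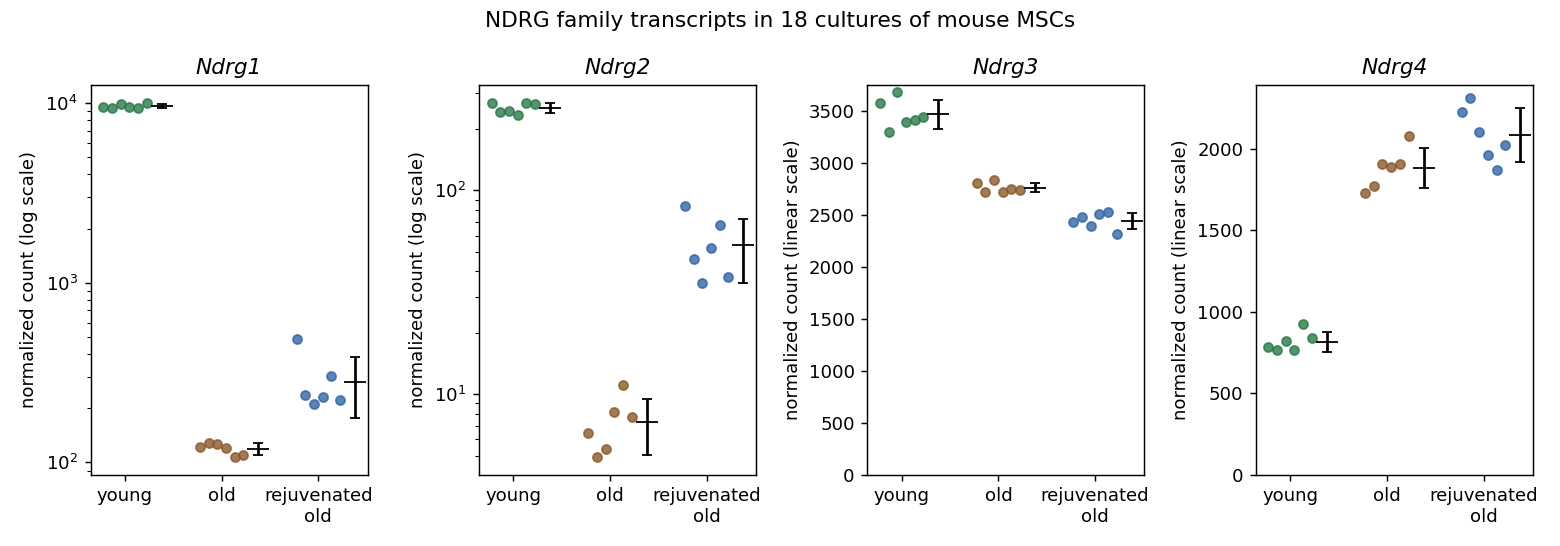
Normalized counts of the 4 NDRG genes in each library (points, replicates 1 to 6 from left to right within a group) with the group mean and SD (black bars, n = 6), on log axes for Ndrg1 and Ndrg2 and linear axes from 0 for Ndrg3 and Ndrg4. Ndrg1 and Ndrg2 were high in young, lowest in old and in between in rejuvenated old MSCs, whereas Ndrg3 was lowest in rejuvenated old and Ndrg4 lowest in young MSCs.

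Ndrg1 and Ndrg2 also moved together among the rejuvenated old cultures. Replicates 1 and 5 had the highest values of both genes, and replicate 3 the lowest of both. Across the 6 rejuvenated old libraries, Pearson's r of their log2 values was 0.91, and it was 0.93 over the 5 without replicate 1. Ndrg3, which was lower after co-culture, had r of 0.21 with Ndrg1 and 0.55 with Ndrg2 over the 6 libraries. Over the 5 without replicate 1 these were 0.68 and 0.86. These libraries share the old cell source and the co-culture, and no p-value is given. How many other genes had as high an r in them was not counted, so nothing particular to this pair is read from it. Over the deviations from the group means of all 18 libraries r of Ndrg1 with Ndrg2 was 0.57, but 0.20 over the 17 without rejuvenated old replicate 1. In both values the Ndrg2 deviations of the old libraries rest on only 5 to 11 reads each.

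Ndrg3 was highest in young MSCs and lowest after co-culture. The gene (Entrez 29812) lies on chromosome 2, from 156927342 to 156992132. Young libraries held 3574, 3299, 3681, 3394, 3411 and 3443 normalized counts, a mean of 3467 ± 137 (SD, n = 6). Old libraries held 2805, 2723, 2833, 2720.5, 2749 and 2737, a mean of 2761 ± 46.8. Rejuvenated old libraries held 2428, 2474, 2391, 2507, 2531 and 2312, a mean of 2441 ± 81.1. None of these ranges overlapped, and the order was young, old, rejuvenated old. The young mean was 1.26 times the old mean (0.33 ± 0.03 SE on the log2 scale), and the rejuvenated old mean was 0.884 times the old mean (-0.18 ± 0.03). Rejuvenated old libraries thus stood at -54.5 ± 14.7% of the log2 distance from old to young MSCs, on the far side of old.

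Ndrg4 was the only member with a lower level in young than in old MSCs. The gene (Entrez 234593) lies on chromosome 8, from 95676974 to 95714956, where the annotation also places the predicted gene Gm51585. Whether the counting used strand is not stated, so reads of overlapping genes could not be told apart. Young libraries held 785, 763, 821, 767, 925 and 838 normalized counts, a mean of 817 ± 61.0 (SD, n = 6). Old libraries held 1730.2, 1771, 1909, 1887, 1905 and 2079, a mean of 1880.2 ± 123. Every old library held more than any young library, and the old mean was 2.30 times the young mean (-1.20 ± 0.06 SE on the log2 scale). Rejuvenated old libraries held 2223, 2315, 2103, 1959, 1872 and 2022, a mean of 2082 ± 166. Rejuvenated old and old libraries overlapped, and the difference of 0.15 ± 0.06 was the least certain of the family. It ranged from 0.11 without rejuvenated old replicate 2 to 0.18 without rejuvenated old replicate 5. It fell short of an adjusted p under 0.05 in 11 of 30 alternative fits, among them those without old replicate 1, 2, 4 or 5 and without rejuvenated old replicate 1, 2 or 3. Because the family was chosen with its values in view, this count only describes dependence on the fit. It is no test of Ndrg4 or of the other members.

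**Figure D2:**
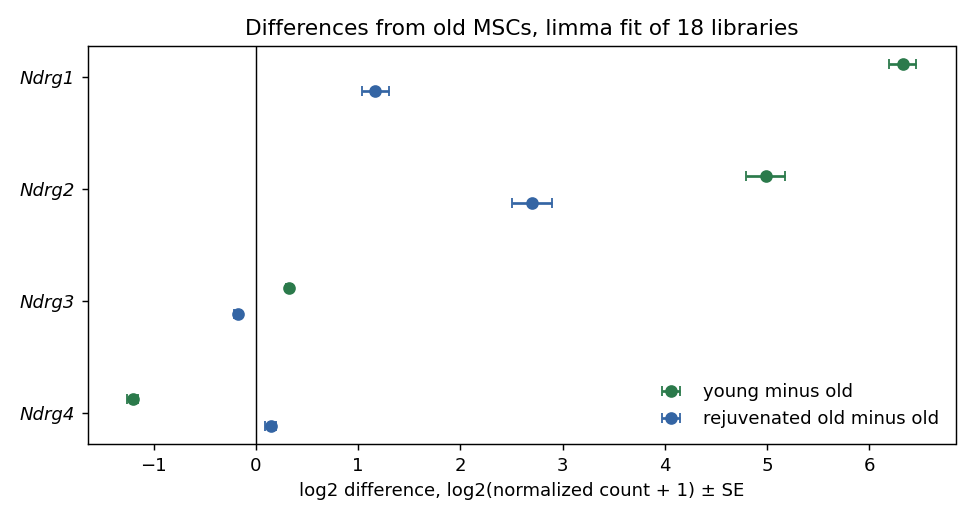
Log2 differences of the 4 NDRG genes from old MSCs (± SE of the limma fit, 6 libraries in each group), for young MSCs in green and rejuvenated old MSCs in blue; both share the old libraries. Young MSCs differed by 6.32 for Ndrg1 and 4.98 for Ndrg2 against 1.17 and 2.70 in rejuvenated old MSCs, and for Ndrg3 and Ndrg4 the 2 points lie on opposite sides of 0.

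The members' calls stand against a large share of genes called in the series. Between young and old MSCs 85.7% of genes had a Benjamini-Hochberg adjusted p under 0.05 in limma, between rejuvenated old and young MSCs 85.6%, and between rejuvenated old and old MSCs 41.6%. All 4 members were past this threshold in each comparison, as they were with edgeR and DESeq2 on the reads. Since the family was chosen on these contrasts, nothing is read from that count. Libraries of 6 against 6 did not overlap for 73.9% of genes between young and old, 70.5% between rejuvenated old and young and 22.0% between rejuvenated old and old MSCs. The order of Ndrg1 and Ndrg2, young above rejuvenated old above old in all libraries, was shared by 3.34% of genes, and the order of Ndrg3, young above old above rejuvenated old, by 2.63%.

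The make-up of the family differed between young and old MSCs. To compare levels between genes, each normalized count was divided by the length of the gene's exons in kb. The summed family level was 2111 ± 55.3 per kb for young MSCs, 734 ± 24.1 for old and 775 ± 43.6 for rejuvenated old MSCs (SD, n = 6 each). In young MSCs Ndrg1 made up 69.0 ± 0.775% of it, Ndrg3 19.6 ± 0.560%, Ndrg4 7.91 ± 0.549% and Ndrg2 3.54 ± 0.197%. In old MSCs Ndrg4 held 52.3 ± 1.77% and Ndrg3 44.9 ± 1.63%, and only 2.47 ± 0.226% was left for Ndrg1 and 0.292 ± 0.0875% for Ndrg2. In rejuvenated old MSCs Ndrg4 held 54.9 ± 2.56%, Ndrg3 37.6 ± 2.21%, Ndrg1 5.45 ± 1.73% and Ndrg2 2.03 ± 0.637%. The order of Ndrg3 and Ndrg4 in old MSCs depended on the length used, since with the longest transcript Ndrg3 held 51.8% and Ndrg4 45.7%.

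**Figure D3:**
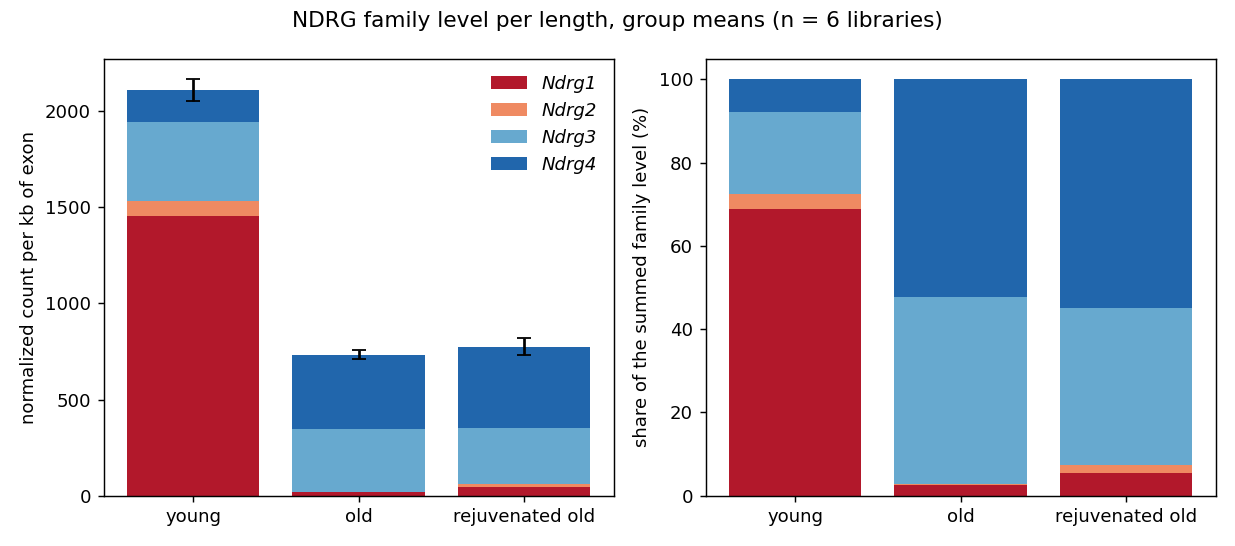
Left, mean normalized count per kb of exon of each NDRG gene, stacked (error bars, SD of the sum over 6 libraries); right, the same as percent of the sum. Ndrg1 filled 69.0% of the young column, and Ndrg3 and Ndrg4 filled most of the old and rejuvenated old columns.

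Transcripts of young cells were looked for in the rejuvenated old libraries, because Ndrg1 is so much higher in young MSCs. There were 45 genes with at most 3 reads in every old library and at least 100 normalized counts in every young one. Their summed level, as a share of the young mean, was 1.96% in rejuvenated old replicate 1 and 0.0876 to 0.168% in the other 5, against 0.0678 to 0.0987% in the old libraries. The old value is low by the choice of the genes, so it cannot serve as a baseline for the rejuvenated old libraries. Applied to the young Ndrg1 mean, the summed share comes to 188 normalized counts in replicate 1, where Ndrg1 exceeded the old mean by 364. In the other 5 it comes to 8.41 to 16.2, where the excess was 92.1 to 184. For Ndrg2 it comes to 4.97 in replicate 1, beside an excess of 76.1, and to 0.223 to 0.428 in the others, beside 27.9 to 60.7. With the summed share subtracted from every rejuvenated old library, the difference from old MSCs was 0.99 for Ndrg1, 2.68 for Ndrg2, -0.19 for Ndrg3 and 0.14 for Ndrg4. The median share of the 45 genes in replicate 1 was 2.65%, above the summed 1.96%. Ndrg1 in that replicate had covered 3.84% of the distance in counts from old to young MSCs. How much of its excess came from young transcripts thus depends on the share used and was not tested further.

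**Figure D4:**
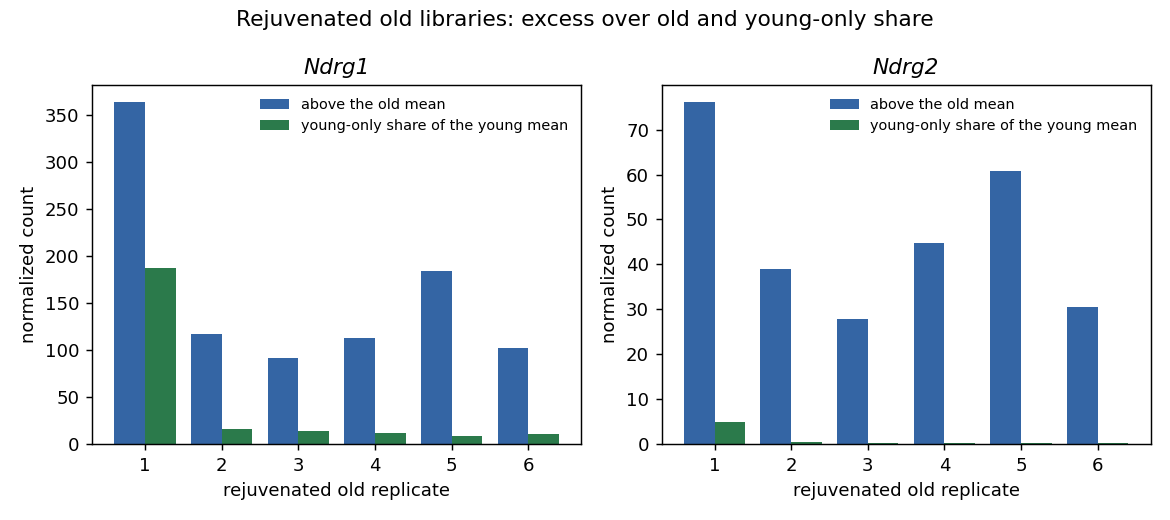
For each rejuvenated old library (horizontal axis, replicate), the normalized count of Ndrg1 (left) and Ndrg2 (right) above the old mean in blue, and the summed share of 45 young-only genes times the young mean in green. In replicate 1 the green bar for Ndrg1 is 188 against 364, and in the other 5 replicates it is at most 16.2.

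Markers of other cell types moved with the comparison of young and old MSCs. The marrow stromal markers were above 3 reads in young MSCs in 13 of 13 cases and in old MSCs in 12 of 13 (not Thy1). They summed to 403454 to 430794 normalized counts in young, 555895 to 583885 in old and 553321 to 594619 in rejuvenated old libraries. Single stromal markers differed in both directions between young and old MSCs. Eng (means 163 and 7340) and Cxcl12 (9227 and 197400) were lower in young MSCs. Ly6a (25100 and 6135) and Pdgfra (14050 and 4075) were higher. Summed over 14 macrophage and blood markers, young libraries held 1193 to 1312 normalized counts, old libraries 15349 to 19379 and rejuvenated old libraries 15418 to 18820.0. In young MSCs Ptprc and Adgre1 were at 0 and 6 of the 14 at or below 3 reads. Aif1 (means 23.1 in young and 14.9 in old MSCs) and Mertk (249 and 190) went the other way. The sum of 8 adipocyte markers was 506 to 631, 11418 to 11816 and 12054 to 15653. Plin1 and Cidec were at 0 in young MSCs, and Lep was at 0 throughout. For 9 muscle markers it was 135 to 198, 2887 to 3108 and 2734 to 3226, most of it Des in old MSCs and Tnnt3 in young MSCs. Tnnt3 was higher in young than in old MSCs (means 138 and 12.3). The sum of 8 neuron markers was 32.9 to 43.7 in young libraries, 199.9 to 247 in old and 325 to 429 after co-culture. Tubb3 carried most of it (means 30.4, 208 and 345), and Nefl was at 0 throughout. Other neuron markers did not share that order. Map2 had means of 0.735, 14.9 and 7.84, Syt1 2.79, 4.84 and 2.85, and Stmn2 2.81, 0.331 and 1.09. The 10 Schwann cell and glia markers summed to 1486 to 1606, 1917 to 2157 and 1793 to 1982, with Mbp higher in young than in old MSCs (means 488 and 79.4), S100b lower (21.3 and 556.5) and Sox10 at or below 3 reads in every library. The 7 endothelial markers summed to 127 to 211 over all libraries, a sum in which Kdr was higher in young MSCs (mean 85.7, against 9.12 in old MSCs and 4.32 after co-culture) and Vwf lower (51.9, 127 and 149.9), and Cldn5 was at 0 throughout. The part of these cells in the differences of the NDRG genes was not tested. In bulk RNA, fewer cells of a type and less RNA per cell cannot be told apart.

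Hypoxia-responsive genes, a group in which Ndrg1 is often counted, were mostly higher in rejuvenated old than in old MSCs. Of 43 listed genes tested, 33 rose and 5 fell (limma, Benjamini-Hochberg adjusted p under 0.05 over all genes), where 21.0% of all genes rose and 20.6% fell. This list and the lists below were chosen with earlier results of these data known, so their counts and adjusted p-values are descriptions. The median log2 difference of the list was 0.73, beside 0.01 over all genes tested. The largest rise was that of Ndufa4l2, a mitochondrial protein induced by low oxygen, from 160 ± 8.68 to 3036 ± 335 normalized counts (SD, n = 6; log2 difference 4.24 ± 0.06 SE, adjusted p = 1.3e-23). Egln3, an oxygen-dependent prolyl hydroxylase, rose from 59.4 ± 6.49 to 313 ± 48.1 (2.37 ± 0.11, adjusted p = 2.6e-13). The largest falls were those of Car12, a carbonic anhydrase, from 40.5 ± 5.64 to 12.3 ± 3.74 (-1.68 ± 0.16, adjusted p = 1.5e-08), and of Pfkfb3, a regulator of glycolysis, from 1197 ± 74.5 to 834 ± 30.4 (-0.52 ± 0.05, adjusted p = 1.1e-07). Ndrg2 was thus among the larger differences and Ndrg3, at -0.18, on the side of the few listed genes that fell.

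Between young and old MSCs 31 of the 43 hypoxia-responsive genes were higher in young and 10 lower (all genes, 41.6% and 44.1%), with a median of 0.87 against -0.02. Stc2, a secreted glycoprotein, held 1129 ± 74.8 in young MSCs and at most 3 reads in every old library, so that it was at least 376-fold higher in young MSCs. Slc2a3, a glucose transporter, was at 174 ± 17.4 in young and 6.00 ± 0.956 in old MSCs (4.65 ± 0.20, adjusted p = 6.8e-16). In the other direction, Adm, the vasodilator peptide adrenomedullin, was at 94.5 ± 17.03 in young and 1691 ± 80.0 in old MSCs (-4.17 ± 0.09, adjusted p = 1.5e-21), and Ddit4, an inhibitor of mTORC1, at 1203 ± 128 and 5317 ± 326 (-2.15 ± 0.06, adjusted p = 1.7e-19). Values of both comparisons share the old libraries. Gapdh, one of the listed genes, has many pseudogene copies and its counts of 210 to 436 (group means) are uncertain.

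**Figure D5:**
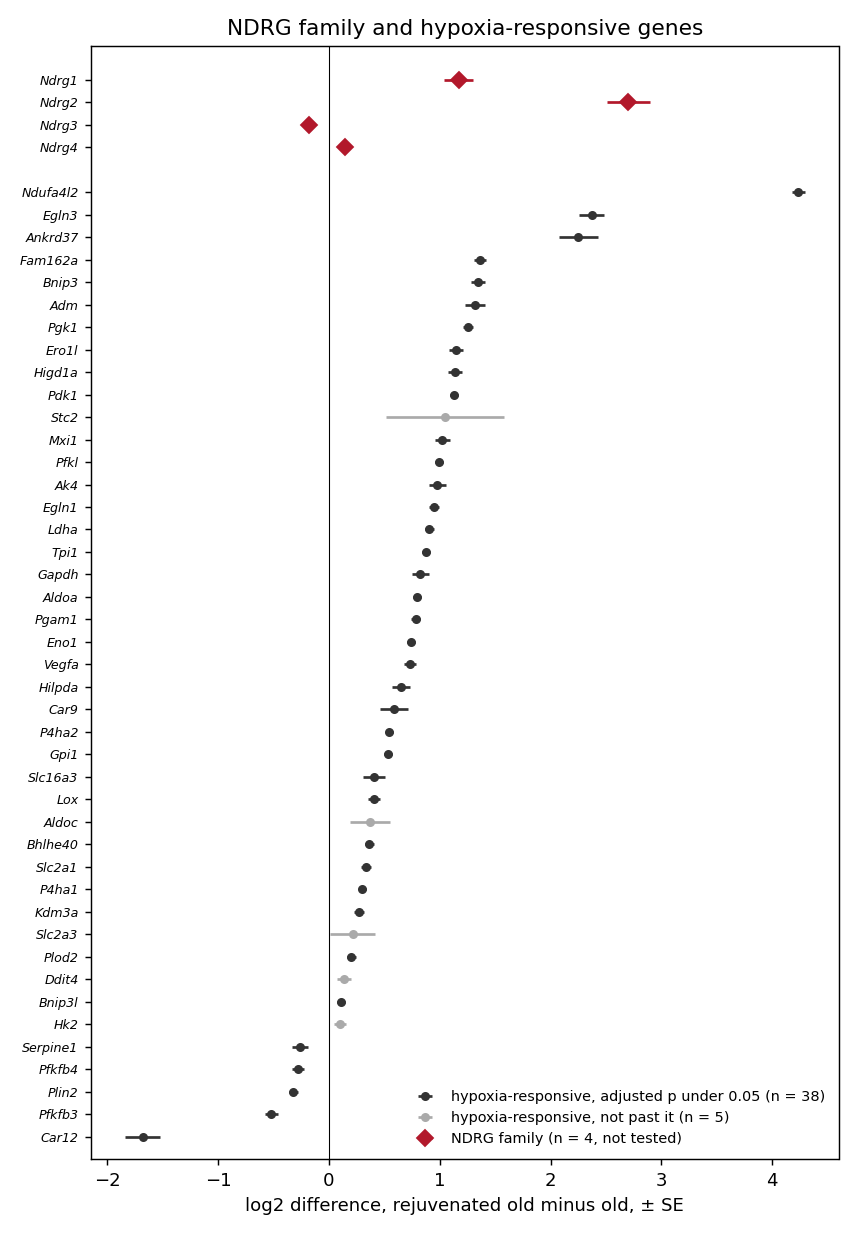
Log2 difference between rejuvenated old and old MSCs (± SE, limma, 6 libraries each) for the 4 NDRG genes (red diamonds) and 43 hypoxia-responsive genes, dark where the adjusted p was under 0.05 and grey where it was not. In the list 33 genes rose and 5 fell; Ndrg1 (1.17) and Ndrg2 (2.70) lie among the rising genes, Ndrg3 and Ndrg4 near 0. Stc2, at the floor of 3 reads in old MSCs, has a fitted difference that depends on the pseudocount.

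Of the regulators themselves, 4 of 13 listed genes other than the Myc network rose and 3 fell between old and rejuvenated old MSCs (all genes, 21.0% and 20.6%), with a median of 0.04; with libraries scaled to the same total 4 rose and 5 fell. The 2 largest rises were both oxygen-dependent prolyl hydroxylases, Egln3 (above) and Egln1, from 2204 ± 30.5 to 4267 ± 399.8 (0.95 ± 0.05, adjusted p = 2.7e-13). Hif1a, the oxygen-regulated transcription factor subunit, fell from 4130 ± 359 to 3401 ± 459 (-0.29 ± 0.07, adjusted p = 0.0030), and its partner Arnt fell from 2599 ± 88.7 to 2257 ± 120 (-0.20 ± 0.04, adjusted p = 1.9e-04). Between young and old MSCs 7 were higher in young and 2 lower (all genes, 41.6% and 44.1%), with a median of 0.12. Egln3 was higher in young MSCs (1.38 ± 0.11, adjusted p = 9.1e-11), as was Egr1, an immediate early factor, at 5681 ± 292 against 2326 ± 142 (1.29 ± 0.07, adjusted p = 2.7e-14). Epas1, a paralogue of Hif1a, was at 61.1 ± 7.00 in young and 7351 ± 241 in old MSCs (-6.89 ± 0.07, adjusted p = 2.6e-27). Trp53, which encodes p53, was lower in young MSCs (-1.24 ± 0.04, adjusted p = 1.9e-18).

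In the Myc and Max network 3 of 11 tested genes rose and 4 fell in rejuvenated old MSCs (median 0.04), beside 21.0% and 20.6% of all genes. Myc, a reported repressor of NDRG genes, had 3248 ± 180 normalized counts in young MSCs, 1095 ± 130 in old MSCs and 2278 ± 166 after co-culture. The Myc transcript was higher in rejuvenated old than in old MSCs by 1.06 ± 0.06 (limma, adjusted p = 8.6e-12) and in young than in old MSCs by 1.57 ± 0.06 (adjusted p = 1.2e-16). Ndrg1 and Ndrg2 were higher in the same comparisons. Myc protein and its binding were not measured, and a part of Myc in the NDRG differences was not tested. Mycn was near the floor, with a mean of 2.80 in young MSCs and at most 3 reads in every old and rejuvenated old library. Mxi1, a Myc antagonist that is also hypoxia-responsive, rose from 881 ± 36.5 to 1810 ± 295 (1.02 ± 0.07, adjusted p = 1.4e-10), while 2 other antagonists of Myc, Mxd4 (-0.41 ± 0.06, adjusted p = 1.8e-05) and Mnt (-0.21 ± 0.04, adjusted p = 2.3e-04), fell. Between young and old MSCs 6 were higher in young and 4 lower (median 0.20), where 41.6% of all genes were higher and 44.1% lower. Mycl was the most different, at 46.3 ± 8.73 in young and 5.09 ± 1.92 in old MSCs (3.00 ± 0.25, adjusted p = 1.5e-10), and Mxd4 (-2.01 ± 0.06, adjusted p = 1.2e-18) and Mxd3 (-1.24 ± 0.09, adjusted p = 8.7e-12) were lower in young.

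None of the 15 tested genes for NDRG kinases and the mTORC2 complex rose after co-culture, and 5 fell (median -0.03), beside 21.0% and 20.6% of all genes. Sgk1, whose product phosphorylates Ndrg1, had 3043 ± 117 in young MSCs, 1275 ± 107 in old MSCs and 881 ± 135 after co-culture. It was higher in young (1.26 ± 0.07, adjusted p = 1.6e-13) and fell in rejuvenated old MSCs (-0.54 ± 0.07, adjusted p = 3.4e-06), the order of Ndrg3. Prr5l, an mTORC2 subunit, fell from 268 ± 27.3 to 154 ± 20.6 (-0.80 ± 0.09, adjusted p = 2.1e-07). Between young and old MSCs 5 were higher and 6 lower in young (median 0.01), near the 41.6% and 44.1% of all genes. Deptor, an mTOR inhibitor, was higher (0.69 ± 0.14, adjusted p = 7.9e-05), and Sgk3 (-1.51 ± 0.15, adjusted p = 2.1e-09) and Akt1 (-1.17 ± 0.03, adjusted p = 8.2e-21) were lower. Phosphorylation was not measured in these libraries.

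Genes of iron handling mostly fell after co-culture, with 1 of 15 up and 10 down (median -0.17), beside 21.0% and 20.6% of all genes. Steap3, a ferrireductase of endosomes, fell from 839 ± 39.6 to 468 ± 54.6 (-0.85 ± 0.06, adjusted p = 9.9e-11), and Slc40a1, the iron exporter ferroportin, from 268 ± 26.1 to 187 ± 22.7 (-0.52 ± 0.07, adjusted p = 4.9e-06). The single rise was that of Fbxl5, an iron sensor (0.19 ± 0.04, adjusted p = 0.0011). Against old MSCs, young MSCs had 8 of these genes higher and 6 lower (median 0.22; all genes, 41.6% and 44.1%). Slc40a1 (2.48 ± 0.07, adjusted p = 3.7e-19) and Steap3 (2.17 ± 0.06, adjusted p = 5.0e-20) were higher in young. Tfr2, a transferrin receptor, at 3.98 ± 2.23 against 325 ± 12.7 (-6.26 ± 0.30, adjusted p = 5.5e-15), and Heph, a ferroxidase, at 2.83 ± 2.10 against 131 ± 7.48 (-5.36 ± 0.30, adjusted p = 1.1e-13), were lower.

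Of 13 tested genes for reported NDRG partners and effectors 1 fell and 0 rose after co-culture (median of the list 0.03), where 20.6% of all genes fell and 21.0% rose. This count went from 1 to 2 or 3 in several alternatives, with 3 calls without old replicate 3 or rejuvenated old replicate 1, and with libraries scaled to the same 75th percentile 2 rose and 1 fell. In young MSCs 7 were higher and 5 lower than in old MSCs (median 0.10; all genes, 41.6% and 44.1%). Atf3, a stress-induced factor (1.49 ± 0.11, adjusted p = 1.4e-11), and Lrp6, a Wnt co-receptor (1.05 ± 0.03, adjusted p = 8.7e-20), were higher in young. Bves, a membrane protein that binds Ndrg4, had 0 reads in every young library and 34.5 ± 6.53 in old MSCs, so that it was at least 10.9-fold lower in young MSCs.

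Both tested neighbours of Ndrg1 on the chromosome were higher in young MSCs, and neither rose after co-culture. Wisp1 was higher in young than in old MSCs (1.26 ± 0.06, adjusted p = 2.7e-15) but fell after co-culture, from 711 to 516 (-0.47 ± 0.06, adjusted p = 1.3e-06). On the other side St3gal1 was higher in young MSCs (1.39 ± 0.03, adjusted p = 1.2e-20) and did not pass the test after co-culture (-0.08 ± 0.03, adjusted p = 0.079). Beside Ndrg2, Slc39a2 passed neither test, and Arhgef40 was slightly lower in both young (-0.22 ± 0.03, adjusted p = 1.9e-06) and rejuvenated old MSCs (-0.08 ± 0.03, adjusted p = 0.044). Rab5if, beside Ndrg3, was lower in young (-0.57 ± 0.08, adjusted p = 6.2e-07) and in rejuvenated old MSCs (-0.27 ± 0.08, adjusted p = 0.0093), and Dsn1, 2930 bases away, passed neither test. Setd6 starts 678 bases from Ndrg4 and was higher in young (1.17 ± 0.06, adjusted p = 2.7e-14) and in rejuvenated old MSCs (0.23 ± 0.06, adjusted p = 0.0044), whereas Gins3 rose by 0.20 ± 0.07 after co-culture (adjusted p = 0.034). All differences are against old MSCs, from limma with Benjamini-Hochberg adjustment.

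The genes with the most similar levels over the 18 libraries were Epha1, Slc38a1 and Zfp36 for Ndrg1 (Pearson's r 0.998, 0.997 and 0.997), and Sorbs3, Igfbp4 and Rrp1b for Ndrg2 (0.986, 0.983 and 0.983). For Ndrg3 they were Gla, Gdpd1 and Cpe (0.985 each), and for Ndrg4 Glis2, Ctif and Sncg (0.994, 0.991 and 0.989). Epha1 held 2353, 135 and 232 normalized counts in young, old and rejuvenated old MSCs, Igfbp4 21364, 4929 and 10443, Gla 2018, 1272 and 1021, and Glis2 1666, 3293 and 3525. These correlations rest mainly on the 3 group means, which the libraries of a group share.

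When each library was taken relative to its group mean, other genes came first. They were Prex2, Igfbp6 and Hoxb7 for Ndrg1 (r 0.934, 0.914 and 0.909), Epb41l4a, H60b and Cystm1 for Ndrg2 (0.820, 0.790 and 0.782), Dnajc9 and Ppm1a for Ndrg3 (0.760 and 0.716), and Snord65, Cog3 and Tnpo2 for Ndrg4 (0.816, 0.777 and 0.768), over 18 libraries each. Without rejuvenated old replicate 1, r with Ndrg1 fell to 0.627 for Prex2, 0.474 for Igfbp6 and 0.576 for Hoxb7, each of them far higher in young than in old MSCs. H60b, at most 3 reads in every old and rejuvenated old library, and Hoxb7, at most 3 reads in every old library, had too few reads there for a reliable deviation. Old libraries also held few reads of Ndrg2 itself (5 to 11), Prex2 (mean normalized count 5.77) and Epb41l4a (5.79), so these deviations are uncertain.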

How the data were processed

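RNA from 18 cultures of MSCs was sequenced after poly(A) selection with a stranded kit, with 6 libraries in each of the 3 groups. On the Galaxy platform the authors used HISAT2 for alignment to mm10, StringTie and featureCounts for gene counts and DESeq2 for normalization; versions, annotation, strand setting and filters are not given in the sources used here. The deposited signal of a gene is its read count divided by 1 size factor per library. Whole reads were recovered from them for 100% of values (largest departure 5.55e-05 of a read, tolerance 0.01), giving 22936251 to 29559194 reads per library. Genes that never exceeded 3 reads within a group counted as at the floor there, and folds against it are lower bounds that cover counting error only.

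The NDRG members and all gene lists were chosen with earlier results of these data known. Log2(value + 1) was fitted with limma 3.58.1 (R 4.3.3), 3 group means in 1 fit and a trended prior variance, over 14353 genes with a mean of at least 10, with Benjamini-Hochberg adjustment. These fold changes understate those of low genes. Alternatives, compared in the closing section, were pseudocounts of 0.5 and 10, other filters and scalings, edgeR 4.0.16 and DESeq2 1.42.0 on recovered reads, a replicate block, fits of 2 groups, a single prior variance and leaving out each library. The scripts were tested on simulated counts. Same-numbered libraries of different groups did not deviate together (18 correlations from -0.15 to 0.07), so numbers were not treated as pairs. Replicates of a group differed by more than sampling noise (chi-square per degree of freedom 2.64 to 24 over 45 pairs).

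Named genes were the 4 members, the 3 genes most like each in levels and in deviations, Sgk1, Myc, Mycn and Hif1a, the nearest tested gene on each side, and from each list at most 2 called genes with the largest difference in each direction and comparison; predicted and unnamed genes were passed over in the likeness search, and some genes that the rule names are not reported here. Positions came from RefSeq for GRCm38.p6, in which 25271 of 27179 gene numbers were found, and promoter windows from the same source. A planned comparison of the NDRG proteins was not made here. Python 3.11.15, numpy 2.4.6, pandas 2.3.3 and matplotlib 3.10.9 were used.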

Additional observations from a re-analysis of the deposited data

Results flagged for a closer look

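Ndrg1 in rejuvenated old replicate 1, with 483 normalized counts, stood apart from the other 5 libraries of its group. The same library held the highest share of young-only transcripts, 1.96%, and their part in the value was not tested beyond the subtraction given above. Ndrg4 in young replicate 5 made up 9.01% of the family level, apart from the other 5 young libraries. In all 24 groups of values were looked at, and chance alone sets a library apart in about 1 group in 20.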

How the results depend on the processing

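No member changed direction in any alternative for any comparison. Between rejuvenated old and old MSCs, leaving out each library in turn gave 1.00 to 1.24 for Ndrg1, 2.56 to 2.82 for Ndrg2, -0.19 to -0.16 for Ndrg3 and 0.11 to 0.18 for Ndrg4. With a pseudocount of 10 the Ndrg2 difference was 1.84 against old in rejuvenated old and 3.94 in young MSCs, and with quantile normalization 3.09 and 5.49. With libraries scaled to the same total, Ndrg3 differed by 0.40 between young and old and by -0.60 between rejuvenated old and young MSCs. The causes of these shifts were not tested. With the longest transcript as the length, the family shares in young MSCs were 65.6% for Ndrg1, 3.34% for Ndrg2, 23.8% for Ndrg3 and 7.28% for Ndrg4, in old MSCs 2.22% for Ndrg1, 51.8% for Ndrg3 and 45.7% for Ndrg4, and in rejuvenated old MSCs 44.3% for Ndrg3 and 48.9% for Ndrg4.

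Of the partners and effectors, 1 gene was called after co-culture, against 2 with the same total, DESeq2 or a mean of at least 50, 3 with the same 75th percentile or quantile normalization, and 1 to 3 with a library left out. Of the 3 genes most like each member over 18 libraries, Spearman's rho kept 0 for Ndrg1, 0 for Ndrg2, 1 for Ndrg3 and 1 for Ndrg4, and of the 3 by deviations 0, 1, 1 and 0. A pseudocount of 10 kept 1 for Ndrg2 in both. Without rejuvenated old replicate 1, a choice made after seeing the data like the subtraction of the young-only share, 1 of 3 stayed for Ndrg2 over the levels, and by deviations 0 for Ndrg1, 0 for Ndrg2 and 1 for Ndrg4. DESeq2 called 6345 genes between rejuvenated old and old MSCs and edgeR 6213, against 5971.

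The replicate block left each member's difference as it was (Ndrg1 1.17, Ndrg2 2.70), called 5769 genes between rejuvenated old and old MSCs and took Ndrg4 out of the calls there; no library correlated best with its own number. Ndrg4 also fell out with a single prior variance, the same total, and without the filter on low values. Depth limits Ndrg2 in old MSCs most, on 5 to 11 reads a library.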
